A study of Neurospora crassa with 8 samples.

Results

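Expression of 8 genes that encode regulators of conidiation, the formation of asexual spores, was measured in the filamentous ascomycete Neurospora crassa. They were taken by locus identifier: fl (NCU08726), acon-2 (NCU00478), acon-3 (NCU07617), csp-1 (NCU02713), csp-2 (NCU06095), rca-1 (NCU01312), ada-6 (NCU04866) and wet-1 (NCU01033). These are 8 of the 9730 genes counted, and all 8 were among the 8118 with enough reads to be tested. NCU01033 has no symbol in the RefSeq table for assembly NC12, and wet-1 is the name under which it was listed. None of the 8 overlaps another annotated gene in that table.

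Poly(A) RNA was sequenced from 8 shaken liquid cultures grown for 48 h at 32 degrees C with 1.5% sucrose. There were 2 cultures in each of 4 groups: the ve-1 mutant in iron-free Vogel's medium, wild type in iron-free medium, the ve-1 mutant in standard Vogel's medium, and wild type in standard medium. The labels give the genotype only as ve-1 or wt, without the allele, and call the harvested material mycelia, while the source field names germinated conidia. The deposited files carry a different strain number for the 2 cultures of each group, and the same one in both media for same-numbered cultures of a genotype, so the spread within a group includes any difference between strains.

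In N. crassa, conidiation usually begins when hyphae meet air: aerial hyphae grow up, bud into chains of cells, and the chains break into free conidia. fl, acon-2 and acon-3 are classical loci whose mutants stop before the chains are complete, and csp-1 and csp-2 are loci whose mutants make chains that do not separate. Products of conidia include the hydrophobin EAS, which coats the spore, and the CON proteins. The velvet protein VE-1 belongs to a family of fungal regulators that couple development to light and to secondary metabolism.

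Total counts per library ran from 6654585 to 10192729. ve-1 (NCU01731) had 15 to 80 counts in the ve-1 libraries and 1077 to 2977 in those of wild type, and sre (NCU07728), a GATA factor gene that represses siderophore synthesis, had 62 to 112 counts in iron-free and 773 to 1216 in standard medium, so both followed the labels. Levels below are CPM (counts scaled to library size) after TMM scaling, a correction for differences in library composition. Although the label is mycelia, conidial transcripts were present: the summed level of eas, con-6, con-8, con-10 and con-13 was 53070 and 3099 CPM in replicates 1 and 2 of iron-free ve-1, 2850 and 6587 in iron-free wild type, 104105 and 118145 in standard ve-1, and 58433 and 15615 in standard wild type. eas was the largest part of this sum except in iron-free wild type, where con-8, at 1568 and 5430 CPM, exceeded eas, at 1253 and 1073 CPM. The sum therefore follows mainly eas. In bulk RNA, a lower level from fewer conidiating cells cannot be told apart from less RNA per cell, and this holds for every value below. Values for a pair of cultures are given as replicate 1, then replicate 2.

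Of the 8 regulators, 2 rose and 0 fell in ve-1 when the strains were compared in standard medium (rca-1 and wet-1), where 27.8% of all tested genes were called, 12.5% as higher. In iron-free medium 2 rose and 0 fell in ve-1 (rca-1 and ada-6), where 18.5% of all genes were called, 8.36% as higher. Without iron rca-1 fell in wild type and again in ve-1, and no other regulator was called, where 6.57% and 22.4% of all genes were called, 5.10% and 11.6% as lower. With 8 genes, these counts of 2 and 1 do not set the regulators apart from other genes. None of the 8 had an iron effect that passed as different between the genotypes with edgeR, where 0.246% of all genes were called, 0.0862% with a positive and 0.160% with a negative difference (1 of 8 at an unadjusted p under 0.05 and 1 of 8 with DESeq2, ada-6 both times). A call is an adjusted p under 0.05 over all tested genes, from a fit to all 8 cultures in which the 4 groups share their estimate of spread.

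rca-1, which encodes a Myb-like protein similar to FlbD, a conidiation activator of Aspergillus nidulans, though N. crassa still forms conidia without it, was the regulator that differed in every comparison of genotype and of medium. It was higher in ve-1 in both media and lower without iron in both genotypes. Its level was 47.0 and 35.0 CPM in iron-free ve-1, 17.1 and 17.5 in iron-free wild type, 129 and 107.5 in standard ve-1, and 35.3 and 39.9 in standard wild type. No 2 groups of any of the 4 comparisons overlapped, and the highest group mean was 6.84 times the lowest. Iron-free ve-1 and standard wild type, which differ in both genotype and medium, did overlap.

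In standard medium rca-1 rose 3.15-fold in ve-1 over wild type, or by 1.66 on the log2 scale (SE 0.23, edgeR quasi-likelihood adjusted p = 0.005615). In iron-free medium it rose 2.37-fold, or by 1.24 on the log2 scale (SE 0.23, adjusted p = 0.01357). Without iron its log2 fold change was -1.53 in ve-1 (SE 0.23, adjusted p = 0.009041), and -1.12 in wild type (SE 0.23, adjusted p = 0.03480). The iron effect in ve-1 minus that in wild type was -0.41 on the log2 scale (95% interval -1.15 to 0.33, adjusted p = 0.4965), so a difference between the genotypes in the iron response was not shown.

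Of these 4 calls, the fall in wild type was the least firm: it was lost when the replicate number was a block within genotype (adjusted p = 0.05944), with total-count scaling (log2 fold change -0.60, adjusted p = 0.1284), when only the wild-type cultures were fitted (0.07154), and without any 1 of the wild-type cultures or of the standard ve-1 cultures (adjusted p from 0.06934 to 0.1522). The rise in standard medium and the fall in ve-1 were lost without standard ve-1 replicate 1 (adjusted p = 0.05763 and 0.07490), and the rise in iron-free medium without iron-free wild-type replicate 1 or 2 (adjusted p = 0.06385 and 0.05896) or when only the iron-free cultures were fitted (0.05228).

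**Figure D1:**
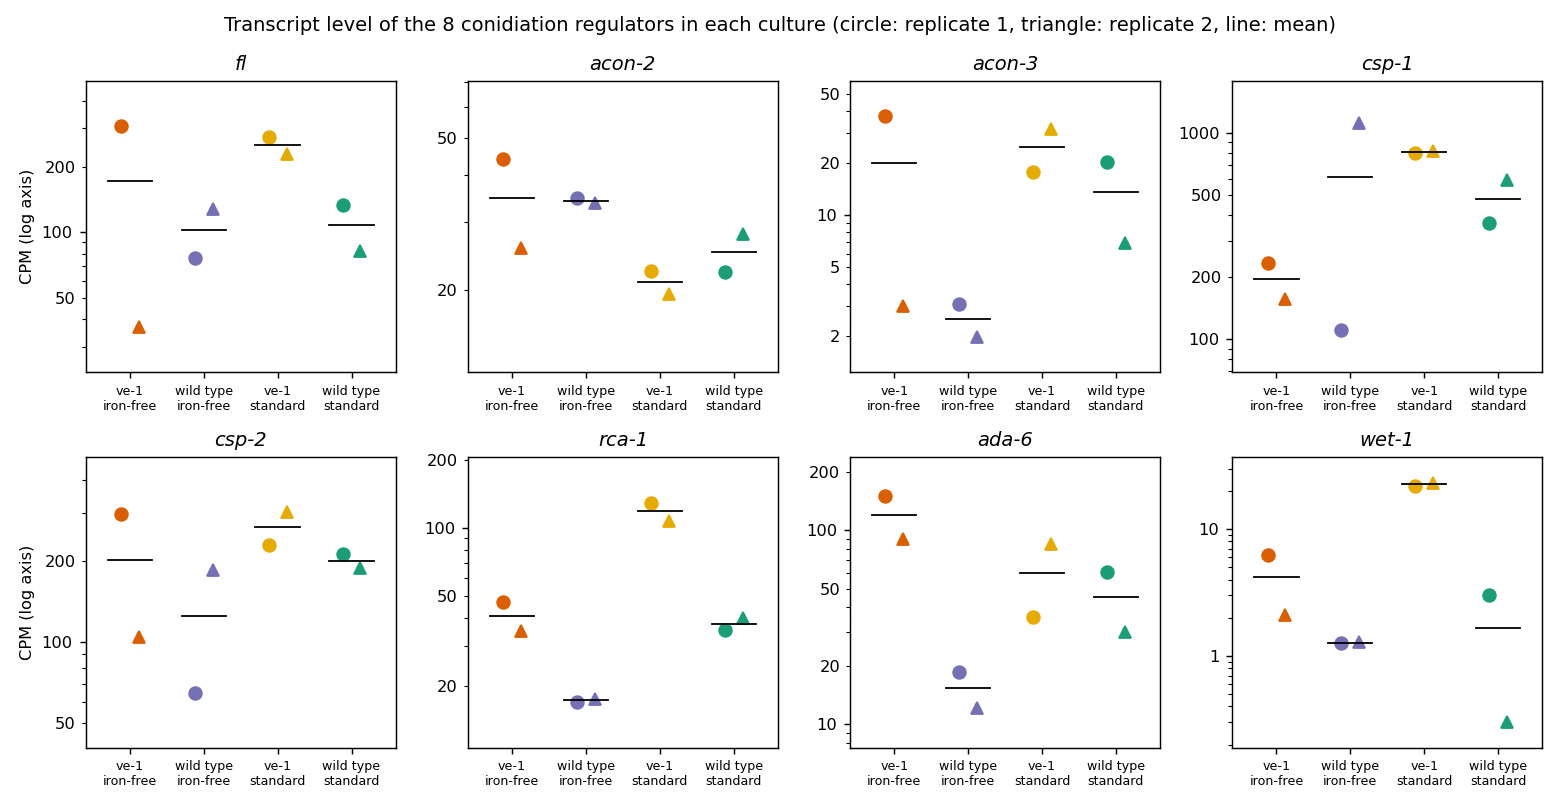
Level of each of the 8 regulators in CPM (log axis) in the 2 cultures of each group, with circles for replicate 1, triangles for replicate 2 and a line at the mean. The 2 cultures of each group lie close together for rca-1, with standard ve-1 highest at 129 and 107.5 CPM, whereas fl in iron-free ve-1 lies at 308 and 36.8 CPM and csp-1 in iron-free wild type at 111 and 1116 CPM.

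wet-1 was listed as the homologue of wetA, which in Aspergillus is needed for the conidial wall to mature. It had few reads and the widest range over the cultures of the 8. Its counts were 53 and 26 in iron-free ve-1, 14 and 11 in iron-free wild type, 157 and 148 in standard ve-1, and 21 and 2 in standard wild type. Its level was 6.23 and 2.09 CPM in iron-free ve-1, 1.26 and 1.29 in iron-free wild type, 21.9 and 23.3 in standard ve-1, and 3.03 and 0.302 in standard wild type. The standard ve-1 cultures stood above the other 6, and the highest culture was 77.1 times the lowest. The same 2 cultures had the highest rca-1 levels and the highest summed level of conidial transcripts, 104105 and 118145 CPM, of which eas was 91783 and 101246 CPM. The part of conidial material in the values of wet-1 and rca-1 was not tested.

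In standard medium wet-1 rose in ve-1 by 3.74 on the log2 scale (SE 0.85, 95% interval 1.73 to 5.74, adjusted p = 0.02084). The call was lost without standard wild-type replicate 2 (log2 fold change 2.89, adjusted p = 0.06324), the culture with 2 reads, and without standard ve-1 replicate 1 or 2 (adjusted p = 0.09792 and 0.07326). In iron-free medium the ve-1 cultures also lay above those of wild type, but the difference did not pass (log2 fold change 1.67, 95% interval -0.30 to 3.64, adjusted p = 0.2018).

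Without iron, wet-1 was lower in both ve-1 cultures than in either standard ve-1 culture, with a fitted log2 ratio of -2.46 (SE 0.77), and the adjusted p of 0.05826 was just short of the threshold. It passed with the replicate number as a block over all groups (log2 fold change -2.67, adjusted p = 0.04019), with DESeq2 (adjusted p = 0.009280), and without either standard wild-type culture. It did not pass with the block within genotype, the one that matches the shared strain numbers. In wild type the groups overlapped, and the log2 fold change was -0.40 (95% interval -2.53 to 1.74), or 0.12 with total-count scaling.

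ada-6 encodes a zinc cluster factor named for a mutant in which all development was altered. It was called for ve-1 in iron-free medium. Its levels were 149 and 90.2 CPM in iron-free ve-1 and 18.7 and 12.2 CPM in iron-free wild type, and the groups were far apart. In standard medium the groups overlapped, with 35.8 and 84.3 CPM in ve-1 and 60.8 and 29.7 CPM in wild type.

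In iron-free medium ada-6 rose 7.73-fold in ve-1, or by 2.95 on the log2 scale (SE 0.55, 95% interval 1.66 to 4.24, adjusted p = 0.01518). Without iron-free wild-type replicate 1, iron-free wild-type replicate 2 or iron-free ve-1 replicate 1, the adjusted p was 0.05265, 0.07422 and 0.05159. In standard medium the log2 fold change was 0.41 (95% interval -0.80 to 1.61, adjusted p = 0.5763), and it turned negative without standard wild-type replicate 2 (-0.02) or standard ve-1 replicate 2 (-0.34).

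The iron comparisons of ada-6 pointed in opposite directions. Both iron-free ve-1 cultures were above both standard ve-1 cultures (log2 fold change 0.99, adjusted p = 0.1963), and both iron-free wild-type cultures were below both standard wild-type cultures (log2 fold change -1.55, adjusted p = 0.1226, or 0.04024 with DESeq2). The difference between these iron effects was 2.54 on the log2 scale (SE 0.74, 95% interval 0.81 to 4.28). It did not pass over all genes (unadjusted p = 0.01018, adjusted p = 0.1347), whereas DESeq2 gave 2.51 with an adjusted p of 0.02328.

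fl encodes a zinc cluster factor that is needed for the budding chains of conidia and activates eas. In standard medium it was higher in both ve-1 cultures, at 274 and 227.5 CPM, than in both wild-type cultures, at 133 and 82.4 CPM. The log2 fold change of 1.22 did not pass (SE 0.83, 95% interval -0.72 to 3.16, adjusted p = 0.2942). It passed without iron-free ve-1 replicate 1 (adjusted p = 0.04648) or replicate 2 (0.04811), and when only the 4 standard cultures were fitted (0.03516).

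The iron-free ve-1 cultures were far apart. fl was at 308 and 36.8 CPM in iron-free ve-1, an 8.37-fold difference between cultures of one group, and at 76.2 and 128 CPM in iron-free wild type. Of all 8 cultures, iron-free ve-1 replicate 1 was the highest and replicate 2 the lowest. The log2 fold change of ve-1 over wild type in iron-free medium was 0.75 with both cultures (95% interval -1.17 to 2.68) and -1.47 without replicate 1. The iron effect in ve-1 was -0.54 with both cultures (95% interval -2.46 to 1.37), 0.30 without iron-free ve-1 replicate 2, and -2.76 without iron-free ve-1 replicate 1 (adjusted p = 0.02226). In wild type the iron effect was -0.08 (95% interval -1.99 to 1.84), and it was 0.40 with total-count scaling and 0.01 with upper-quartile scaling.

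acon-3, the N. crassa counterpart of medA, a modifier of conidiophore development in A. nidulans, showed the same split of the iron-free ve-1 pair. Its counts there were 318 and 37, or 37.4 and 2.97 CPM. It was at 3.07 and 1.99 CPM in iron-free wild type, 17.8 and 31.6 CPM in standard ve-1, and 20.2 and 6.94 CPM in standard wild type. Iron-free ve-1 replicate 1 was the highest of the 8 cultures, and replicate 2 was within the iron-free wild-type range.

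No comparison of acon-3 passed with edgeR in the fit to all 8 cultures. In iron-free medium the log2 fold change of ve-1 over wild type was 2.96, with an SE of 1.12 and an adjusted p of 0.1067. It was 0.23 without iron-free ve-1 replicate 1, and without replicate 2 it was 3.87 and passed (adjusted p = 0.03524), as it did with DESeq2 (adjusted p = 0.009528). In wild type both iron-free cultures were below both standard ones (log2 fold change -2.41, 95% interval -5.02 to 0.20, adjusted p = 0.2249).

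All 8 regulators were higher in replicate 1 than in replicate 2 of iron-free ve-1, fl and acon-3 by the widest margins. The share of all tested genes that were higher in replicate 1 was not computed, so this count is not read as a trait of the regulators. Among conidial products, eas, con-13, con-10 and con-8 split the same cultures in the same direction. eas was at 51526 CPM in replicate 1 and 2485 CPM in replicate 2, and con-13 had 333 counts in replicate 1 and 0 in replicate 2, where 0 counts allow up to 0.241 CPM. con-10 was at 76.0 and 15.2 CPM and con-8 at 1378 and 547.7 CPM. con-6 did not follow, at 50.4 and 51.3 CPM. The part of the amount of conidiating material in this split of the regulators was not tested.

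**Figure D2:**
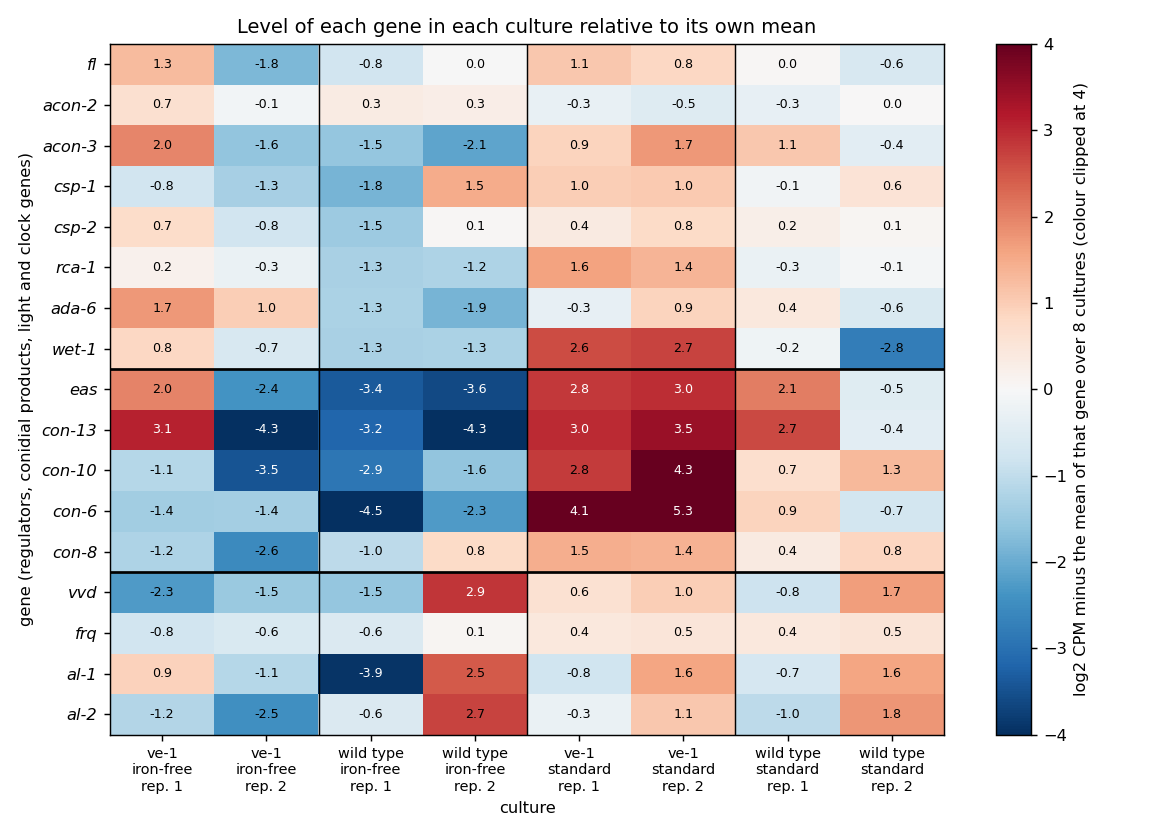
Log2 CPM of the 8 regulators, 5 conidial products and 4 light and clock genes in each culture, minus the mean of that gene over the 8 cultures (columns are cultures, colours and printed numbers give the difference). In iron-free ve-1, all 8 regulators are higher in replicate 1 than in replicate 2, as are all the conidial products drawn but con-6. The share over all tested genes was not computed. In iron-free wild type csp-1, vvd, al-1 and al-2 are above their means in replicate 2 and below them in replicate 1.

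acon-2, a locus required early in conidiophore formation, varied least. It was at 43.9 and 25.7 CPM in iron-free ve-1, 34.7 and 33.6 in iron-free wild type, 22.4 and 19.5 in standard ve-1, and 22.3 and 27.9 in standard wild type. Of the 4 standard cultures, 3 were below all 4 iron-free ones, and wild-type replicate 2 was above iron-free ve-1 replicate 2. The iron effect was a log2 fold change of 0.73 in ve-1 (95% interval 0.03 to 1.42, adjusted p = 0.1144) and 0.45 in wild type (95% interval -0.24 to 1.14, adjusted p = 0.3832), and neither passed. The ve-1 effect was 0.02 in iron-free medium (95% interval -0.66 to 0.71) and -0.26 in standard medium (95% interval -0.96 to 0.44, or 0.06 with total-count scaling).

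csp-1 encodes a zinc finger repressor that is a direct target of the white collar complex, the blue light receptor of N. crassa. It was at 235 and 157 CPM in iron-free ve-1, 111 and 1116 CPM in iron-free wild type, 796.5 and 816 CPM in standard ve-1, and 365 and 588 CPM in standard wild type. The iron-free wild-type cultures were the lowest and the highest of all 8, a 10.1-fold difference, while the standard ve-1 cultures differed 1.02-fold.

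No comparison of csp-1 passed with edgeR in the fit to all 8 cultures. In ve-1 both iron-free cultures were below both standard ones by a fitted log2 ratio of -2.04 (SE 0.89, adjusted p = 0.1360). This passed without iron-free wild-type replicate 1 or 2 (adjusted p = 0.01622 and 0.01574), when only the ve-1 cultures were fitted (0.01443) and with DESeq2 (0.03189). In iron-free medium the ve-1 effect was -1.65 (95% interval -3.72 to 0.42). It was -2.50 without wild-type replicate 1 (adjusted p = 0.02102) and 0.79 without wild-type replicate 2. In wild type the iron effect was 0.36 (95% interval -1.65 to 2.38), and -2.02 without iron-free wild-type replicate 2.

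Light-responsive genes split the iron-free wild-type pair in the same way as csp-1. vvd, which encodes a small blue light photoreceptor, was at 123 and 2583 CPM there, al-1, which encodes phytoene dehydrogenase, at 24.2 and 2052 CPM, and al-2, which encodes phytoene synthase, at 173 and 1683 CPM. frq, a core gene of the circadian clock, was at 112 and 177 CPM. These 4 genes were picked after their values had been seen. In standard medium the wild-type cultures, whose same-numbered members carry the same strain number, were split in the same direction. vvd was at 201 and 1123 CPM there, al-1 at 230 and 1100, al-2 at 126 and 880, frq at 223 and 237, and csp-1 at 365 and 588. In standard ve-1 each of these genes was also higher in replicate 2. There vvd was at 541 and 709 CPM, al-1 at 215 and 1102, al-2 at 214 and 549, and frq at 224 and 234. In iron-free ve-1 vvd was at 74.1 and 127 CPM and frq at 98.3 and 109. The other genes went the opposite way there, al-1 at 703 and 169, al-2 at 116 and 47.1, and csp-1 at 235 and 157. The labels do not state how the cultures were lit, and the part of light or of strain in the csp-1 values was not tested.

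csp-2 encodes a grainyhead-like factor that controls cell wall remodelling at conidial separation. It was at 299 and 104.5 CPM in iron-free ve-1, 65.0 and 185 in iron-free wild type, 229 and 304 in standard ve-1, and 212 and 189 in standard wild type. The standard groups did not overlap, and the iron-free groups did. The ve-1 effect was a log2 fold change of 0.69 in iron-free medium (95% interval -0.71 to 2.09) and 0.41 in standard medium (95% interval -0.99 to 1.81), and the iron effect was -0.40 in ve-1 and -0.68 in wild type (adjusted p from 0.4496 to 0.6548 in the 4 comparisons).

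The signs leaned one way more often than the calls. For ve-1 over wild type, 7 of 8 fold changes were positive in each medium, with a median log2 fold change of 1.00 in iron-free medium (0.04 over all genes) and 0.81 in standard medium (-0.03 over all genes). The positive count in standard medium was 8 with total-count scaling, and 6 without standard wild-type replicate 2 or standard ve-1 replicate 2. In iron-free medium it was 6 with DESeq2 and 4 without iron-free ve-1 replicate 1. Without iron, 6 of 8 were negative in each genotype, with a median of -0.47 in ve-1 and -0.54 in wild type (0.02 and 0.03 over all genes). The negative count in wild type was 4 with total-count scaling, 5 with upper-quartile scaling or the replicate block, and 7 with the block within genotype. It was also 4 without standard wild-type replicate 1, 5 without iron-free wild-type replicate 1 and 7 without iron-free wild-type replicate 2. In ve-1 the negative count was 5 without standard ve-1 replicate 2 and 3 without iron-free ve-1 replicate 2. Comparisons that share cultures or strain numbers are not independent.

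Groups did not overlap for 5 of 8 regulators in standard medium, all higher in ve-1, and for 3 of 8 in iron-free medium, all higher in ve-1. Over all tested genes, 74.4% had groups that did not overlap in standard medium (35.8% higher and 38.6% lower in ve-1) and 61.0% in iron-free medium (31.3% higher and 29.8% lower in ve-1). Between the media, 5 of 8 did not overlap in wild type (1 higher and 4 lower without iron), against 57.5% of all genes (28.3% higher and 29.2% lower). In ve-1 it was also 5 of 8 (2 higher and 3 lower), against 68.7% of all genes (34.8% higher and 33.9% lower). Groups that did not overlap were thus the usual case for a tested gene.

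**Figure D3:**
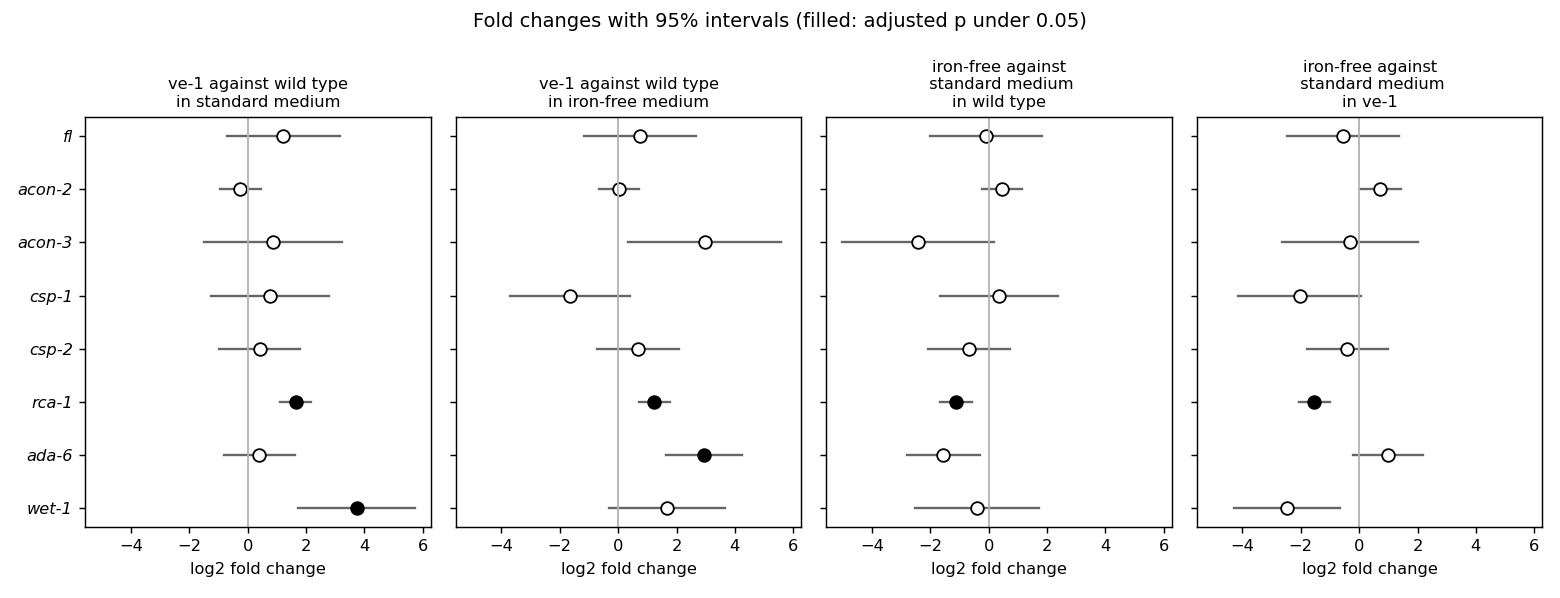
Log2 fold change (x axis) of the 8 regulators in the 4 comparisons, with 95% intervals from the edgeR fit and filled points at an adjusted p under 0.05. rca-1 is filled in all 4 panels, at 1.66, 1.24, -1.12 and -1.53, while the intervals of fl cross 0 in each.

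The authors' deposited tables, which list only genes at an adjusted p under 0.05, hold 3 of the 8 regulators in each of the 4 comparisons, or 12 entries, and 6 of these were also called here. In standard medium the authors' deposited table gives ve-1 over wild type as 3.27 for wet-1, 1.64 for rca-1 and 1.21 for fl on the log2 scale. In iron-free medium the authors' deposited table gives 2.78 for ada-6, 2.40 for acon-3 and 1.18 for rca-1. For iron-free against standard medium, the authors' deposited tables give -2.01 for acon-3, -1.40 for ada-6 and -1.06 for rca-1 in wild type, and -2.24 for wet-1, -1.98 for csp-1 and -1.49 for rca-1 in ve-1. The entries not called here are fl, acon-3 in iron-free ve-1 and in wild type, ada-6 in wild type, and csp-1 and wet-1 in ve-1.

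Genes around the regulators were read from 4 lists. Of the 5 conidial products, con-6 was higher in ve-1 in standard medium, and con-6, con-10 and con-8 were lower without iron in ve-1 (12.5% of all genes rose in the first comparison and 11.6% fell in the second). con-6 was at 2228 and 5209 CPM in standard ve-1 and 249 and 79.1 CPM in standard wild type (a log2 ratio of 4.50, SE 0.92, adjusted p = 0.01492). In iron-free ve-1 con-6 was at 50.4 and 51.3 CPM, a log2 ratio of -6.19 to standard ve-1 (SE 1.00, adjusted p = 0.01128). con-10 fell in the same comparison with -5.62 (SE 0.99) and con-8 with -3.16 (SE 0.68). None of the 5 was called for iron in wild type or for ve-1 in iron-free medium. Of the 5, 3 were called lower for iron in wild type without iron-free ve-1 replicate 1 or 2 and with DESeq2, and 2 with total-count scaling. For ve-1 in iron-free medium, 2 were called higher without iron-free ve-1 replicate 2, and 1 was called lower without iron-free wild-type replicate 1. The median log2 fold change of the 5 was 1.62 and 1.61 for ve-1 in iron-free and standard medium, and -3.16 and -3.31 for iron in ve-1 and wild type, against 0.04, -0.03, 0.02 and 0.03 over all genes. All 3 falls were lost without standard ve-1 replicate 1 or iron-free ve-1 replicate 2, runs in which fewer of all genes were called. Without standard ve-1 replicate 1 the log2 ratios were -6.68 for con-6, -6.17 for con-10 and -3.12 for con-8. Without iron-free ve-1 replicate 2 they were -6.20, -4.87 and -2.64. The fall of con-8 was also lost without standard ve-1 replicate 2. The rise of con-6 was lost without either standard ve-1 culture or standard wild-type replicate 2. con-6 overlaps another annotated gene.

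Of 14 other regulators of asexual development that were tested, 1 rose and 5 fell in ve-1 in standard medium (12.5% of all genes rose and 15.3% fell), and 2 fell in iron-free medium (10.1% of all genes fell). vib-1, a p53-like factor gene known from cell death on incompatible fusion and from conidiation, was at 50.4 and 89.8 CPM in iron-free ve-1, 411 and 498 in iron-free wild type, 13.2 and 16.7 in standard ve-1, and 122 and 269 in standard wild type. It fell in ve-1 in both media, by fitted log2 ratios of -2.70 in iron-free medium (SE 0.45) and -3.71 in standard medium (SE 0.48). ada-5 fell in both media as well, with -1.53 in iron-free (SE 0.22) and -1.68 in standard medium (SE 0.22), and ada-1 and sah-2 fell in standard medium with -2.13 and -1.28. The fall of sah-2 was just under the threshold (edgeR adjusted p = 0.04935). It did not pass with total-count scaling (log2 ratio -0.96) or upper-quartile scaling (-1.14). The 5 falls in standard medium were lost without standard ve-1 replicate 1, a run in which few of all genes were called. The log2 ratios there were -3.55 for vib-1, -1.76 for ada-5, -1.99 for ada-1 and -1.105 for sah-2. Without iron, vib-1 and rcm-1 rose in ve-1, vib-1 with 2.23 (SE 0.46), and none of the 14 was called in wild type. The rise of vib-1 was lost without either standard ve-1 culture or iron-free ve-1 replicate 2. The medians of the 14 were -0.58 and -0.48 for ve-1 in iron-free and standard medium, and -0.02 and 0.13 for iron in ve-1 and wild type. ada-1, ada-5 and sah-2 overlap other annotated genes.

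Of 18 signalling genes tested, 0 rose and 3 fell in ve-1 in standard medium, and 1 fell in iron-free medium, against the 15.3% and 10.1% of all genes called lower in those media. nox-1, which encodes an NADPH oxidase, was at 38.3 and 34.3 CPM in iron-free ve-1 and 138 and 112 CPM in iron-free wild type (a log2 ratio of -1.78, SE 0.21, adjusted p = 0.004993). nox-2, which encodes the other NADPH oxidase, fell in ve-1 in standard medium with -0.98 (SE 0.26), as did nox-1 with -0.69 (SE 0.20). With total-count scaling these were -0.66 and -0.38 and did not pass. All 3 falls were lost without standard wild-type replicate 2 or either standard ve-1 culture, runs in which fewer of all genes were called. In those runs the log2 ratio ran from -0.68 to -0.785 for nox-1 and from -0.805 to -1.16 for nox-2. The fall of nox-1 in standard medium also did not pass with upper-quartile scaling (log2 ratio -0.57), without the filter (-0.70) or with only the 4 libraries compared (-0.66). Without iron, 4 rose and 2 fell in ve-1, where 10.9% of all genes rose and 11.6% fell. In wild type 0 were called, against 2 higher and 2 lower with DESeq2 and 4 higher with total-count scaling. The rises included the G alpha gene gna-2, with 1.69 (SE 0.23), and nox-2, with 0.89 (SE 0.26), and the falls included pkac-1, which encodes the catalytic subunit of protein kinase A, with -1.23 (SE 0.23). All 6 calls were lost without standard ve-1 replicate 1, a run in which few of all genes were called. The log2 ratios there were 1.48 for gna-2, 0.72 for nox-2 and -1.22 for pkac-1. The rise of nox-2 also did not pass with the block within genotype (log2 ratio 0.895, edgeR adjusted p = 0.06259). It was lost as well without either standard wild-type culture, standard ve-1 replicate 2 or either iron-free ve-1 culture (log2 ratios from 0.85 to 1.08). The medians of the 18 were -0.13 and -0.29 for ve-1 in iron-free and standard medium, and 0.33 and 0.14 for iron in ve-1 and wild type.

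Of the 4 velvet genes, 3 fell and 1 rose in ve-1 in standard medium, and 2 fell and 1 rose in iron-free medium, where 10.1% of all genes fell and 8.36% rose (15.3% and 12.5% in standard medium). They include ve-1 itself, the mutated gene, which fell in both media. NCU05964 fell in both media with -4.96 in iron-free (SE 0.79) and -7.96 in standard medium (SE 0.92), NCU02775 fell in standard medium with -1.76, and NCU00646 rose in both, with 3.14 in iron-free (SE 0.62) and 2.12 in standard medium (SE 0.60). Without iron, NCU02775 rose in ve-1 and none of the 4 was called in wild type. That rise was lost without either standard ve-1 culture (adjusted p = 0.1187 and 0.05718) or iron-free ve-1 replicate 2 (0.06293). The rise of NCU00646 was lost without iron-free wild-type replicate 1 or 2 in either medium, and in standard medium also without standard wild-type replicate 2 or either standard ve-1 culture. Without standard ve-1 replicate 1, NCU05964 was still called lower in standard medium, while ve-1 and NCU02775 were no longer called, with fold changes about as large (log2 ratios of -5.45, adjusted p = 0.05286, and -1.64, adjusted p = 0.05805). The fall of NCU05964 in iron-free medium was lost without iron-free ve-1 replicate 2 (-4.80, adjusted p = 0.06031), and this gene overlaps another annotated gene.

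Markers of sexual tissue were read as well. The summed level of 9 such genes (asd-1, asd-3, asd-4, poi-2, fmf-1, pre-1, pre-2, mfa-1 and ccg-4) was 120 and 70.1 CPM in iron-free ve-1, 510 and 390 in iron-free wild type, 2823 and 285 in standard ve-1, and 307 and 308 in standard wild type, so standard ve-1 replicate 1 stood above the other 7 cultures. Most of the sum in that culture was mfa-1 at 2049 CPM and poi-2 at 633 CPM, and the markers did not all follow. In the same culture asd-1 was at 16.6 CPM, against 100 and 252 CPM in standard wild type. ccg-4 was at 0 there, against 137 CPM in standard ve-1 replicate 2, where mfa-1 was at 8.50 CPM. In standard wild type ccg-4 was at 162 and 0.151 CPM, and mfa-1 at 7.51 and 15.85 CPM. The 2 cultures of each group carry different strain numbers, and the part of strain in these values was not tested. Of the 8 markers that were tested, poi-2 rose and asd-1 fell in ve-1 in standard medium, and asd-1 fell in iron-free medium. Without iron asd-3, poi-2 and pre-2 fell in ve-1, and 0 were called in wild type. Over all genes 12.5% rose and 15.3% fell for ve-1 in standard medium, 10.1% fell for ve-1 in iron-free medium, and 11.6% fell for iron in ve-1. pre-2 had 550 and 14 counts in standard ve-1 and 8 and 10 in iron-free ve-1, so most of its fall came from standard ve-1 replicate 1. In the same 2 groups poi-2 had 4544 and 453 counts against 29 and 2, and asd-3 had 56 and 31 against 8 and 1. fmf-1, a regulator of sexual development, was at 0 in 4 of the 8 cultures.

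The gene with the nearest profile to each regulator was sought among 1082 other tested genes that have a symbol, as the root mean square difference of log2 CPM over the 8 cultures after each gene's own mean was removed. For rca-1 it was cys-4, at 0.29 log2 units, where rca-1 itself varied around its mean by 0.99. For ada-6 it was pep, at 0.33 (own variation 1.15), and for csp-1 it was cao-2, which encodes a carotenoid oxygenase, at 0.48 (own variation 1.14). The next nearest to csp-1 were the cryptochrome gene cry and the photolyase gene phr, each at 0.61, named here after their values were seen. The nearest were gh47-5 for acon-3 at 0.53 (own variation 1.52), gh13-4 for wet-1 at 0.63 (1.80), gh13-2 for fl at 0.58 (0.98), ptk-2 for csp-2 at 0.40 (0.71) and vma-4 for acon-2 at 0.20 (0.37).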

How the data were processed

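Poly(A) RNA was made into libraries with a stranded mRNA kit, per the labels' protocols. The submitters' processing notes name FastQC, Trim Galore, STAR and DESeq2 without versions. Not given in the sources used here are the read counter, its strand setting, the build and the gene annotation. The deposited file of each library holds the authors' raw counts per gene for 9730 genes, and these counts were the input to every test. The authors' deposited comparison tables give a mean normalised signal per group with a log2 fold change and an adjusted p-value, and were used only where named.

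Counts were tested with edgeR 4.0.16 (limma 3.58.1, R 4.3.3): filterByExpr at its settings of 10 (count) and 15 (total count), TMM scaling, a robust quasi-likelihood fit to 4 groups of 2 cultures, 2-sided tests and Benjamini-Hochberg adjustment over all 8118 tested genes at 0.05. Residual degrees of freedom were 4. Log2 CPM for profile likeness used a prior count of 2. The procedure was tested on simulated data with independent cultures, so that test does not cover strains shared between the media. Alternatives were DESeq2 1.42.0, total-count and upper-quartile scaling, no filter, a fit to the 4 libraries compared, a replicate block, a block within genotype, and leaving out each library; a group left with 1 culture is then assumed to vary like the others.

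Replicate numbers come from the sample titles. Deviations from the group means of same-numbered cultures correlated across genes at 0.06 in wild type and 0.00 in ve-1 between media, and from -0.03 to 0.13 over all 6 pairs of groups. Same-numbered cultures of a genotype carry 1 strain number in the deposited file names. The blocked values are therefore given where they change a call of a regulator or of a gene named by rule. The p-values measure the spread between cultures, which includes any difference between strains. Library totals ran from 6654585 to 10192729, and among the regulators and conidial products counts under 10 were met in wet-1 and con-13, where counting error is largest; the limit set by a count of 0 covers counting error only.

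The 8 members and all lists were chosen with earlier results of these data known. Up to 4 genes per list were named, those called in the most comparisons and then those with the largest absolute log2 fold change. asm-1, ras-2 and poi-1 were not matched by symbol. Gene symbols and overlaps came from RefSeq NC12, which matched 9729 of the 9730 identifiers. Counts of genes that overlap another gene are uncertain, since no strand setting is given.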

Additional observations from a re-analysis of the deposited data

Results flagged for a closer look

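Several genes had effects of opposite sign under the same contrast, with every culture of one pair of groups moving one way and every culture of the other pair the opposite way. None of these differences passed over all genes with edgeR's quasi-likelihood test. For ada-6, the iron effect was upward in ve-1 and downward in wild type, and the difference was 2.54 on the log2 scale (adjusted p = 0.1347). For con-8, the ve-1 effect was downward in iron-free medium and upward in standard medium, a difference of -2.66 (adjusted p = 0.1767). For gna-2, the ve-1 effect was upward in iron-free medium and downward in standard medium, a difference of 0.89 (adjusted p = 0.1940). For nox-1, the iron effect was downward in ve-1 and upward in wild type, a difference of -1.09 (adjusted p = 0.1190). For the velvet gene NCU05964, the iron effect was upward in ve-1 and downward in wild type, a difference of 3.0 (adjusted p = 0.1723). These genes are the regulators and the list genes named by rule. Of the 41 genes tested from the 4 lists, 7 showed the opposite pattern for the ve-1 effect and 4 for the iron effect. The share of all tested genes with either pattern was not computed. Groups that did not overlap made up 57.5% to 74.4% of all tested genes by comparison, so these counts are not read as a trait of the listed genes. Among the list genes not named by rule, gnb-1, picked here after its values were seen, had a difference of 1.16 (adjusted p = 0.1213) and showed both patterns.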

How the results depend on the processing

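The calls of rca-1, wet-1 and ada-6 kept their direction under every alternative run, and the settings that ended a call are given beside each. The number of regulators called was 2 in standard medium, 2 in iron-free medium, 1 for iron in wild type, 1 for iron in ve-1 and 0 for the difference of the iron effects. With DESeq2 it was 3 in iron-free medium, 2 for iron in wild type, 3 for iron in ve-1 and 1 for the difference. With only the 4 libraries compared it was 3 in standard medium, 1 in iron-free medium, 0 for iron in wild type and 3 for iron in ve-1. With total-count scaling and with the replicate block within genotype it was 0 for iron in wild type, and with the replicate block over all groups it was 2 for iron in ve-1. Without 1 library each in turn it ran from 0 to 3 in standard medium, 0 to 3 in iron-free medium, 0 to 1 for iron in wild type, 0 to 2 for iron in ve-1 and 0 to 0 for the difference.

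Over all genes the counts called were 2258, 1500, 533, 1822 and 20 in the same order. They were 1249 for iron in wild type and 601 for the difference with DESeq2, 1290 for iron in wild type with total-count scaling, 940 in iron-free medium and 125 for iron in wild type with only the 4 libraries compared, 35 for the difference without the filter, and 326 for iron in wild type with the replicate block within genotype. With the replicate block over all groups they were 2034, 1303, 535, 1657 and 21. Without 1 library each in turn they ran from 104 to 2361, 586 to 1487, 7 to 645, 59 to 1756 and 0 to 22, the lowest in standard medium and for iron in ve-1 without standard ve-1 replicate 1. Total-count scaling moved the median log2 fold change of all genes by 0.31 in standard medium, 0.52 for iron in wild type, 0.30 for iron in ve-1 and -0.23 for the difference, and the split of higher against lower calls became 1541 to 787 (1012 to 1246 with TMM) in standard medium, 1003 to 287 (119 to 414) for iron in wild type, 1418 to 679 (881 to 941) for iron in ve-1 and 6 to 21 (7 to 13) for the difference. Upper-quartile scaling moved the median by 0.13 in standard medium and 0.11 for iron in wild type, with splits of 1221 to 1009 and 170 to 350.

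Fold changes that had not passed turned sign in some settings. These were acon-2 in iron-free medium with DESeq2 (-0.001) and in standard medium with total-count scaling (0.057), csp-1 for iron in wild type with the block within genotype (-0.40), fl for iron in wild type with total-count scaling (0.40), upper-quartile scaling (0.011) and the replicate block (0.10), and wet-1 for iron in wild type with total-count scaling (0.12). Without 1 library each in turn, the fold changes for ve-1 in iron-free medium ran from -1.47 to 1.59 for fl, -0.41 to 0.36 for acon-2, -2.50 to 0.79 for csp-1 and -0.25 to 1.60 for csp-2, and in standard medium from -0.34 to 1.01 for ada-6. For iron in wild type they ran from -0.41 to 0.31 for fl, -2.02 to 1.28 for csp-1 and -1.24 to 2.03 for wet-1, and for iron in ve-1 from -2.76 to 0.30 for fl, -3.04 to 0.60 for acon-3 and -1.34 to 0.17 for csp-2. For the difference of the iron effects they ran from -2.69 to 0.38 for fl, -0.15 to 0.62 for acon-2, -0.63 to 3.01 for acon-3 and -0.66 to 1.15 for csp-2. The cause of these changes was not tested.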
